A study of Zea mays with 229 samples.

Results

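The genes described here carry nitrate into the plant cell and turn it into glutamine. They are 8 maize genes named by identifier: the NRT2 nitrate transporters Zm00001d054057 and Zm00001d054060, the nitrate reductases Zm00001d049995 and Zm00001d018206, the nitrite reductase Zm00001d018161, the cytosolic glutamine synthetases Zm00001d017958 and Zm00001d028260, and the plastid glutamine synthetase Zm00001d026501. They were found by looking up these identifiers among the targets of the authors' deposited table. In all, 7 of the 8 stood there, among 19787 genes listed as a target of at least 1 of 23 regulators.

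Plants take up nitrate through membrane transporters, of which the NRT2 family provides the high-affinity route. Nitrate reductase turns nitrate into nitrite in the cytosol, and nitrite reductase turns nitrite into ammonium in the plastid. Glutamine synthetase then joins ammonium to glutamate. Its plastid form works next to nitrite reductase and on ammonium from photorespiration, and its cytosolic forms serve nitrogen transport and the recovery of ammonium inside the plant. Nitrate reductase and nitrite reductase genes are known from many plants to be induced by nitrate.

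The study asked which genes respond to each of 23 transcription factors in maize leaf protoplasts, which are leaf cells freed of their walls. A p1107 plasmid carrying 1 factor, or the empty vector, was brought into B73 protoplasts from etiolated second leaves, red fluorescent cells were sorted, and 3' end sequencing libraries were made. The labels give 152 factor libraries and 77 empty vector libraries in 11 batches, of which 114 were without nitrogen and 115 with nitrogen. Titles of the empty vector libraries name p1107NLSmyc in some batches, p1107 in others and EV in the rest. Whether the construct differed is not stated, and its title goes with the batch. Each combination of plasmid, nitrogen treatment and batch had 2 to 4 libraries, and whether these came from separate protoplast preparations is not stated. The labels give B73 leaf protoplasts for every group, so no intact plant or root was measured. In 1 batch, with 8 G2 and 8 empty vector libraries, all titles begin with G2plant, which the labels do not explain. The other 6 G2 libraries, of another batch, lack that word, and whether the plant material differed is not stated. Since each library holds many sorted protoplasts and no leaf cell type is named for them here, fewer cells of a type and less RNA per cell cannot be told apart.

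The authors' deposited table names a regulator and a target in each row and gives no direction, size, error, nitrogen condition or batch. An edge therefore says that the authors listed the gene as responding to the regulator, up or down, and a missing edge does not show that the gene did not respond. Depth per library is unknown here. Titles of the samples matched 20 regulators to a plasmid name, and 3 regulators without a match keep their identifiers (Zm00001d003176, Zm00001d032024, Zm00001d033859). The plasmids KN1, NLP3 and ZmMYB38 carry no identifier in their titles, and these were not assigned to the 3. NLP factors are known from Arabidopsis as activators of nitrate uptake and reduction genes, and which list belongs to the NLP3 plasmid is not stated in the sources used here.

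The nitrite reductase and the 2 cytosolic glutamine synthetases were listed widely, and the other 5 genes rarely. The authors' deposited table held 42 edges to the 8 genes out of 184 possible ones (22.8%), where 20.3% of all possible edges between the 23 regulators and the 19787 listed genes were present. That background holds only genes with at least 1 regulator, and over the 7 genes that were listed the share was 26.1%. Neither share is far from the background, and no test was made of them. Within the set the edges were uneven. The nitrite reductase had 13 regulators and each cytosolic glutamine synthetase had 11, so that 3 genes held 35 of the edges. The other 5 genes had 0 to 2 regulators and held 7 edges between them. At most 2 regulators was common, and 42.5% of all listed genes had 1 or 2. The median was 2 regulators over the 8 genes and 3 over all listed genes. These numbers carry no error, and genes with 11 and 13 regulators, or with 0, 1 and 2, cannot be ranked among themselves.

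**Figure D1:**
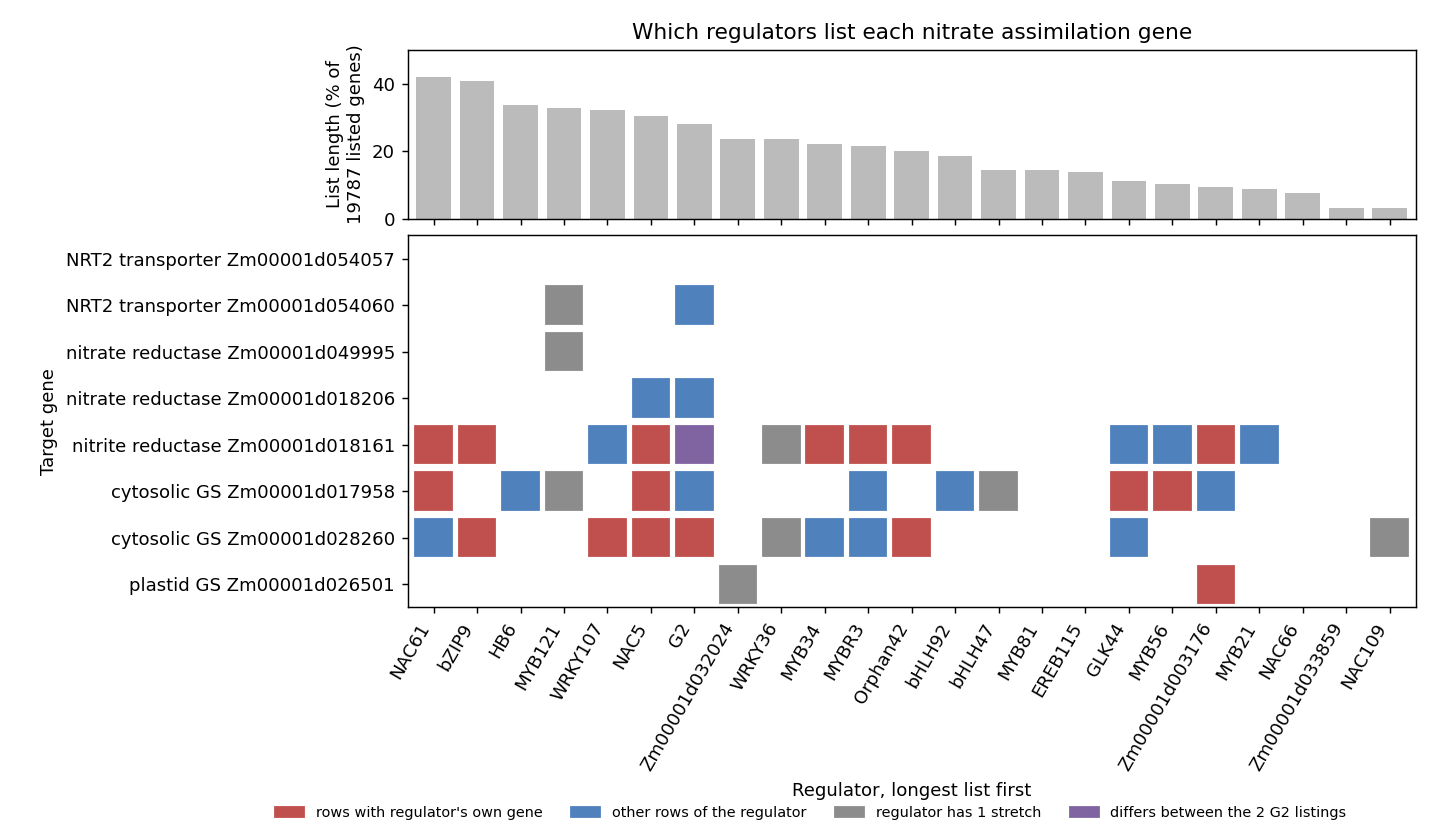
Edges from 23 regulators (columns, longest list first) to the 8 genes (rows, in pathway order); the bars above give each list's length as a percentage of the 19787 listed genes. A filled square is an edge, coloured by the stretch of rows it stands in, and 35 of the 42 squares lie in the rows of the nitrite reductase and the 2 cytosolic glutamine synthetases (GS).

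At the entry of the pathway, the NRT2 transporter Zm00001d054057 was listed for 0 of the 23 regulators. Its relative Zm00001d054060 was listed for 2, MYB121 and G2, the Golden2 regulator of chloroplast development. Most listed genes had at least that many, since 73.9% of them had 2 or more regulators. The regulators MYB121 and G2 have long lists, holding 32.8% and 28.1% of all listed genes. For G2 the edge to Zm00001d054060 stood in the larger of its 2 listings and was not in the smaller. NRT2 copies of grasses are close in sequence, and reads shared between near-identical copies may be dropped or split. No source used here says how the authors counted such reads, so the difference between the 2 copies is uncertain.

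The nitrate reductases, the first enzymes of the pathway, were listed as rarely. Zm00001d049995 was listed for MYB121 alone, which was also a regulator of the transporter Zm00001d054060. Having exactly 1 regulator was common, and 5167 listed genes (26.1%) were in that class. Zm00001d018206 was listed for 2 regulators, NAC5 and G2. No regulator listed both nitrate reductases. The caution about shared reads between related copies may hold for them too, though no sequences were compared here. The G2 edge to Zm00001d018206 again stood in the larger G2 listing and was not in the smaller.

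The nitrite reductase Zm00001d018161, the next enzyme, was listed for 13 regulators. They were NAC61, bZIP9, WRKY107, NAC5, G2, WRKY36, MYB34, MYBR3, Orphan42, GLK44, MYB56, Zm00001d003176 and MYB21. Of all listed genes, 7.22% had 13 or more regulators. The 12 matched regulators among them came from 8 of the 9 batches that held a matched regulator, counting both G2 batches. The batch without an edge held NAC66 as its only matched regulator. In the batch of GLK44 and MYB21 both matched factors listed the gene, and in the batch of MYB121, WRKY36, bHLH47 and MYB81 WRKY36 alone did. Factors of 1 batch may have been compared with the same empty vector libraries, so their edges are not separate measurements.

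Nitrite reductase and nitrate reductase act in sequence, and their edges did not coincide in number. Both regulators of the nitrate reductase Zm00001d018206, NAC5 and G2, also listed the nitrite reductase, which had 11 regulators more. The regulator of the nitrate reductase Zm00001d049995, MYB121, did not list the nitrite reductase. Over all pairs of listed genes with 2 and 13 regulators, the median number shared was also 2. For the pair of Zm00001d049995 and the nitrite reductase 0 were shared, against a median of 1 over all pairs with 1 and 13 regulators.

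The cytosolic glutamine synthetases, which make glutamine outside the plastid, had 11 regulators each, and 11.7% of listed genes had at least as many. Zm00001d017958 was listed for NAC61, HB6, MYB121, NAC5, G2, MYBR3, bHLH92, bHLH47, GLK44, MYB56 and Zm00001d003176. Zm00001d028260 was listed for NAC61, bZIP9, WRKY107, NAC5, G2, WRKY36, MYB34, MYBR3, Orphan42, GLK44 and NAC109. They shared 5 regulators, NAC61, NAC5, G2, MYBR3 and GLK44, which is 45.5% of the regulators of each. The median over all pairs of listed genes with 11 regulators was 6 shared. The Zm00001d028260 list held all 3 factors of the batch of MYB34, MYBR3 and NAC109, against 1 of them for Zm00001d017958.

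The plastid glutamine synthetase Zm00001d026501 was listed for 2 regulators, Zm00001d032024 and Zm00001d003176. Of all listed genes, 73.9% had at least 2. Neither regulator is matched to a plasmid, so 0 of the 20 named factors listed this gene. It shared Zm00001d003176 with the cytosolic gene Zm00001d017958, and 0 regulators with the cytosolic gene Zm00001d028260. The median was 1 over all pairs of listed genes with 2 and 11 regulators.

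**Figure D2:**
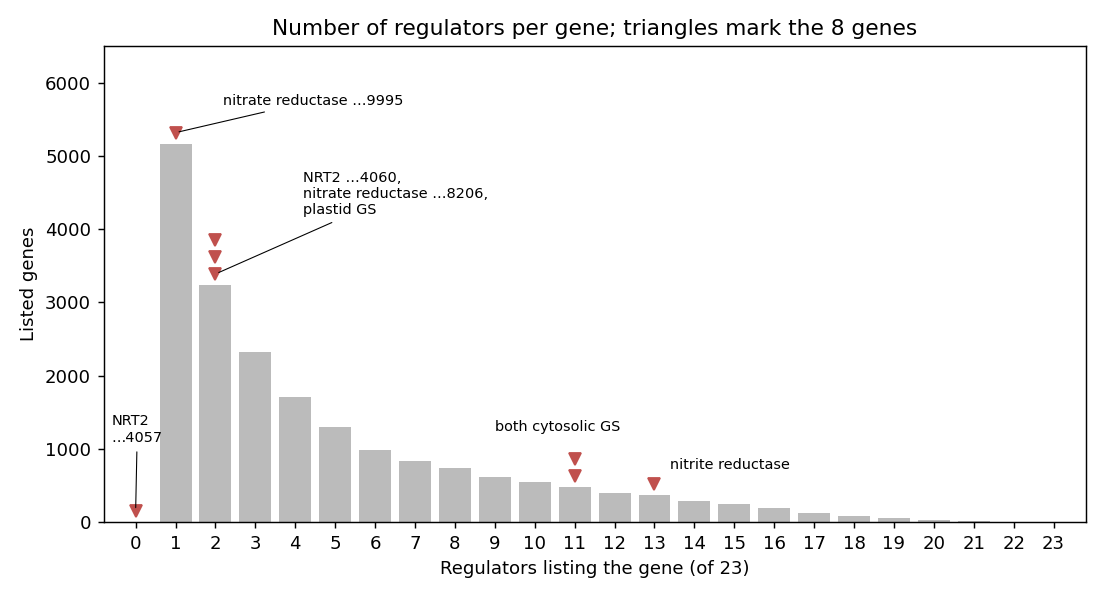
Number of regulators (of 23) per gene over the 19787 listed genes (bars) with the 8 genes as triangles above the bar of their number; Zm00001d054057, at 0, is not among the listed genes. The nitrite reductase, at 13, and the 2 cytosolic glutamine synthetases (GS), at 11, lie right of the mean of 4.67, and the other 5 genes lie at 0 to 2.

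Seen from the regulators, G2 listed 5 of the 8 genes (28.1% of all listed genes stood in its list). They were the transporter Zm00001d054060, the nitrate reductase Zm00001d018206, the nitrite reductase and both cytosolic glutamine synthetases. NAC5 listed 4 (30.6% of listed genes), the same set without the transporter. These were the 2 regulators with 4 or more. G2 was the factor with 14 libraries in 2 batches and 2 listings. Its larger listing, of 4853 genes, held all 5. Its smaller listing, of 2487 genes, held 2 of the 8, the nitrite reductase and Zm00001d028260. The lower count thus went with a shorter listing.

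A count of 3 of the 8 genes came from 5 regulators with lists of very different length. GLK44, the other Golden2-like factor, listed 3 with 11.2% of listed genes in its list, which at that share would be 0.894 of 8. Zm00001d003176 listed 3 with 9.45%, or 0.756 of 8. Its edge to Zm00001d017958 stood in a stretch of rows with 1335 genes, all of them also in the MYB56 list, as described below. MYBR3 listed 3 with 21.5%, MYB121 3 with 32.8% and NAC61 3 with 41.9%. For NAC61, which has the longest list, 3.35 of 8 would follow from that share, so its count was not above it.

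Counts of 2 were those of bZIP9 (40.8% of listed genes), WRKY107 (32.3%), WRKY36 (23.6%), MYB34 (22.2%), Orphan42 (20.2%) and MYB56 (10.4%). A count of 1 was that of HB6 (33.7%), Zm00001d032024 (23.7%), bHLH92 (18.6%), bHLH47 (14.5%), MYB21 (8.96%) and NAC109 (3.33%). HB6 had the third longest list and reached a single gene of the pathway, the cytosolic glutamine synthetase Zm00001d017958. None of the 8 was listed for MYB81 (14.5%), EREB115 (13.9%), NAC66 (7.73%) or Zm00001d033859 (3.35%). For these 4 lists the shares would give between 0.268 and 1.16 of 8, so a count of 0 is close to the background. No test was made of any of these counts, since the genes were chosen with results of these data known.

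**Figure D3:**
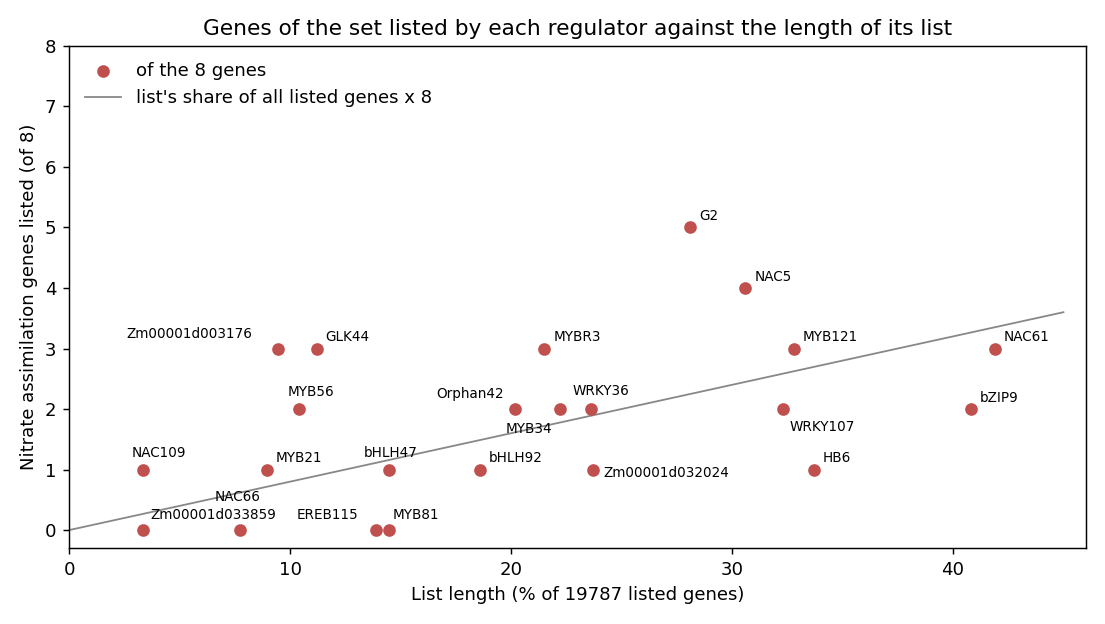
Number of the 8 genes listed by each regulator (vertical axis) against the length of its list as a percentage of the 19787 listed genes (horizontal axis); the line is that percentage of 8. G2 and NAC5 lie above the line at 5 and 4, GLK44 and Zm00001d003176 at 3, and HB6 and bZIP9 lie below it at 1 and 2.

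The 3 widely listed genes, the nitrite reductase and the cytosolic glutamine synthetases, divided the regulators into classes. All 3 were listed for 5 regulators, NAC61, NAC5, G2, MYBR3 and GLK44. The nitrite reductase and Zm00001d028260 without Zm00001d017958 were listed for another 5, bZIP9, WRKY107, WRKY36, MYB34 and Orphan42. Zm00001d017958 alone of the 3 was listed for 4, HB6, MYB121, bHLH92 and bHLH47. MYB56 and Zm00001d003176 listed the nitrite reductase with Zm00001d017958. MYB21 listed the nitrite reductase alone, and NAC109 listed Zm00001d028260 alone. The remaining 5 regulators listed none of the 3.

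Of 19 pairs of matched factors named for the same family, 4 fell in the same class. They were both WRKY factors, both bHLH factors, both Golden2-like factors, and NAC5 with NAC61. Factors of other families fell in these classes too, such as bZIP9, MYB34 and Orphan42 with the WRKY factors and HB6 with the bHLH factors. The share over all pairs of regulators was not computed, so the 4 pairs are not read as a family effect. Both WRKY factors listed the nitrite reductase and Zm00001d028260, and neither listed Zm00001d017958. Both bHLH factors did the opposite and listed Zm00001d017958 with none of the other 7 genes. Both Golden2-like factors, G2 and GLK44, listed all 3. The smaller G2 listing did not hold Zm00001d017958, and by that listing G2 would fall in the class of the WRKY factors. The 4 NAC factors did not go together, as NAC5 and NAC61 listed all 3, NAC109 listed Zm00001d028260 and NAC66 listed none. The 5 matched factors named MYB fell in 5 different classes. Of them 3 listed the nitrite reductase, 2 listed Zm00001d017958 and 1 listed Zm00001d028260. The ZmMYB38 plasmid is not among them, since no list was assigned to it. The 3 unmatched regulators fell in the classes of MYB81 or MYB56. NAC5 and NAC61 come from the same batch and may have been compared with the same empty vector libraries. In each of the WRKY, bHLH and Golden2-like pairs the factors come from different batches. With 2 factors in such a family, no test of family was made.

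Nitrite reductase and the cytosolic glutamine synthetase Zm00001d028260 had the most regulators in common. They shared 10, which is 76.9% of the regulators of the nitrite reductase and 90.9% of those of Zm00001d028260, with NAC109 as the exception. The median over all pairs of listed genes with 13 and 11 regulators was 7. The nitrite reductase and Zm00001d017958 shared 7 regulators, the same as that median, which is 53.8% and 63.6% of their regulators. As a Jaccard index, the number shared divided by the number listing either gene, the values were 0.714 for Zm00001d028260 and 0.412 for Zm00001d017958. By that index 19 of the 19787 listed genes were closer to the nitrite reductase than Zm00001d028260 was. For Zm00001d017958 that number was 2306. From the side of Zm00001d028260, 14 genes were closer to it than the nitrite reductase was. The closeness was thus high but not confined to this pair, which was chosen after seeing the data. Its rank was not tested.

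**Figure D4:**
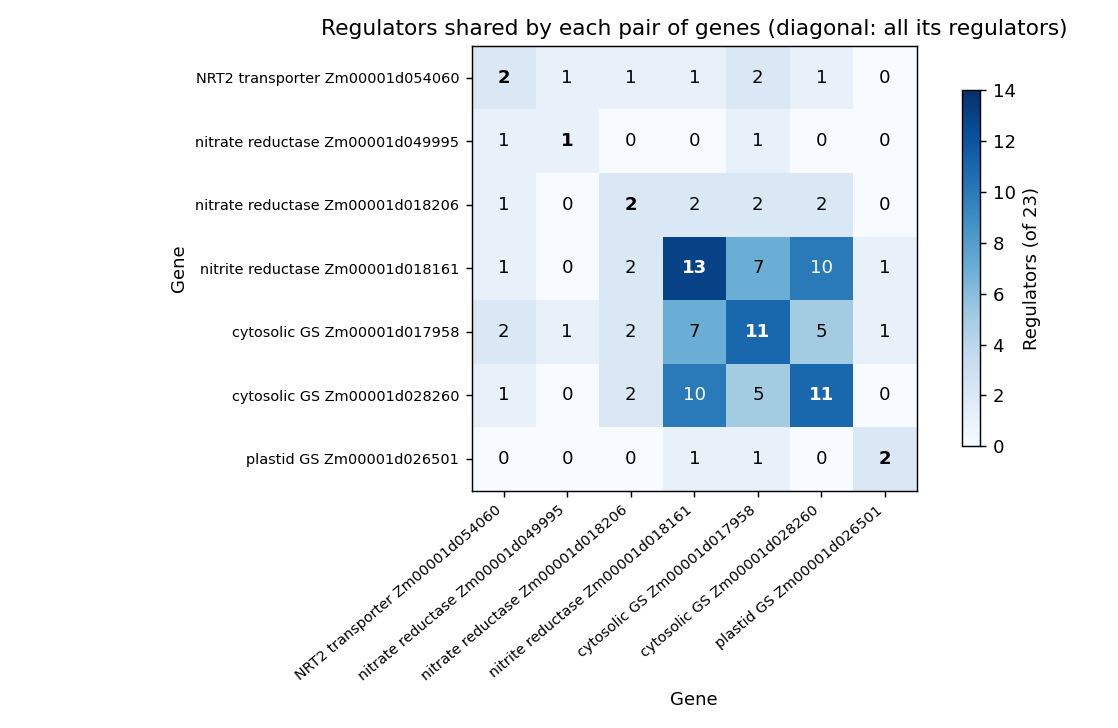
Number of regulators (of 23) shared by each pair of the 7 listed genes, with each gene's own number on the diagonal; darker squares are larger numbers. The nitrite reductase and the cytosolic glutamine synthetase (GS) Zm00001d028260 share 10, and the 2 cytosolic glutamine synthetases share 5.

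For each widely listed gene the closest other targets by the Jaccard index were looked up over the 23 regulators. For the nitrite reductase they were Zm00001d028094 and Zm00001d049286, each with all 13 of its regulators and 2 more (index 0.867). The best index of the 377 genes with 13 regulators had a median of 0.857. For Zm00001d028260 they were Zm00001d039102 and Zm00001d043025, each with all 11 of its regulators and 2 more (0.846). For Zm00001d017958 the closest target was Zm00001d021208, the gene of the regulator EREB115, with all 11 of its regulators and bZIP9, WRKY107 and EREB115 itself (0.786). The edge from EREB115 to its own gene can come from the plasmid. The next was Zm00001d043069, which shared 9 regulators (0.75). For the 486 genes with 11 regulators the best index had a median of 0.833, so the closest genes of these 3 were about as close as those of other genes with as many regulators. Apart from EREB115, these closest targets are known here by identifier alone.

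The table's rows fall into 42 stretches of 1 regulator each, and no source used here says what a stretch stands for. Of the regulators, 16 have 2 stretches that share no gene, 6 have 1 stretch and G2 has 4 in 2 listings. For the 16, members listed together can be in the same stretch or apart. The rule that named the genes does not refer to stretches, though the genes were chosen with earlier results of these data known. Nitrite reductase and Zm00001d028260 stood in the same stretch for 4 of 8 such regulators, bZIP9, NAC5, Orphan42 and GLK44. They stood apart for NAC61, WRKY107, MYB34 and MYBR3. Nitrite reductase and Zm00001d017958 stood together for 2 of 6, NAC61 and NAC5, and apart for MYBR3, GLK44, MYB56 and Zm00001d003176. The cytosolic glutamine synthetases stood together for NAC5 and MYBR3 and apart for NAC61 and GLK44.

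Under NAC5 the nitrate reductase stood apart from the later enzymes. Its nitrite reductase and both cytosolic glutamine synthetase edges stood in the stretch with the NAC5 gene itself, and the nitrate reductase Zm00001d018206 stood in the other. Under Zm00001d003176 the nitrite reductase stood with the plastid glutamine synthetase, and the cytosolic gene Zm00001d017958 stood apart. Over all 23 pairs listed together by a regulator with 2 stretches, 9 (39.1%) stood in the same stretch, where 56.4% of all gene pairs of the same lists did. The 23 pairs come from 10 regulators and reuse the same genes, so they are not independent and no test was made.

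Stretches could not be lined up between regulators. The stretch with the regulator's own gene held 16 of 29 edges of the set (55.2%), against 45.5% of all edges of the 16 regulators. For G2, whose libraries come from 2 batches with different titles, 1771 genes stood in both listings, and 43.2% of them kept their place relative to the G2 gene. The nitrite reductase changed place between the G2 listings, and Zm00001d028260 stood beside the G2 gene in both. No direction of response was therefore read from a stretch.

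The edges of Zm00001d003176 overlap those of MYB56. All 1335 genes of its longer stretch were also in the MYB56 list, and its edge to Zm00001d017958 stood there. Its edges to the nitrite reductase and to the plastid glutamine synthetase stood in the shorter stretch, of which 192 of 535 genes (35.9%) were in the MYB56 list. MYB56 listed the nitrite reductase as well and did not list the plastid gene. Without the longer stretch, Zm00001d017958 would have 10 regulators.

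Identifiers numbered within 5 of a member were checked for edges of their own. Of 10 such identifiers, 9 were listed targets beside Zm00001d017958, 6 each beside Zm00001d018206 and the nitrite reductase, and 5 beside Zm00001d028260. Beside the NRT2 gene Zm00001d054057 there were 2, among them Zm00001d054060, and beside Zm00001d054060 there was 1. No identifier numbered between the NRT2 genes was listed. Beside the nitrate reductase Zm00001d049995 and the plastid glutamine synthetase the number was 1 each. The share over all identifiers was not computed, and whether each number belongs to a gene was not checked. These counts are therefore not read as a trait of the members. Zm00001d018203, numbered 3 before the nitrate reductase Zm00001d018206, had 21 regulators, among them both regulators of that gene. Zm00001d018211 had 13 and shared 1 with it. Zm00001d054065, numbered 5 after the transporter Zm00001d054060, had 12 and shared 0 with it. Zm00001d017959, numbered next to the glutamine synthetase Zm00001d017958, had 9 regulators and shared 4. Genes with few and with many regulators thus had numbers next to each other.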

How the data were processed

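Maize leaf protoplast libraries of 23 factor plasmids and the empty vector were processed by the authors with featureCounts and edgeR on the build B73 RefGen_v4, per the submitters' processing notes. Versions, thresholds and the handling of nitrogen conditions and batches are not stated there. The authors deposited 1 table of 94256 rows with text identifiers only, and 1771 rows repeat a G2 edge, so 92485 distinct edges were used. Sample titles tied 20 regulators to a plasmid, and the labels' batch field gave the batch. The background share of a list is its length over the 19787 genes listed for any regulator. Genes never listed are left out of that number, so shares over all expressed genes are lower.

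The members and lists were chosen with earlier results of these data known. The planned tests of counts, direction and nitrogen were not run, since the table holds no values per library. Named genes are the 8 members, the regulators, up to 2 closest targets by Jaccard index for members with at least 4 regulators, and up to 2 identifiers within 5 of a member that had at least 8 regulators. None of the 8 identifiers matched the reference gene table, which belongs to the assembly Zm-B73-REFERENCE-NAM-5.0, so no coordinates, sequences or list of further pathway genes are given. Counting of lists, stretches and overlaps was tested on simulated data. The tools were matplotlib 3.10.9, scipy 1.17.1, numpy 2.4.6 and Python 3.11.15.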

Additional observations from a re-analysis of the deposited data

How the results depend on the processing

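The 42 edges to the 8 genes were 32 to 42 over 14 alternatives. Each alternative leaves out edges or regulators, so no count of edges or regulators could rise. The nitrite reductase had 10 to 13 regulators, Zm00001d017958 and Zm00001d028260 8 to 11 each, and Zm00001d054057 had 0 in each alternative. The Jaccard index of the nitrite reductase was 0.636 to 0.769 with Zm00001d028260 and 0.353 to 0.5 with Zm00001d017958, pairs chosen after seeing the data, and that of the cytosolic glutamine synthetases was 0.231 to 0.357. Pairs in the same stretch were 36.4% to 42.1% over 13 alternatives.

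Low counts moved by construction, as edges or regulators were left out. With G2 edges entered 2 times, with its smaller listing, or without the factors of either G2 batch, 1 regulator listed 4 or more of the 8 genes, and Zm00001d054060 and Zm00001d018206 had 1 each. Without the batch of NAC5, 1 regulator listed 4 or more and Zm00001d018206 had 1. Without the batch of MYB121, Zm00001d054060 had 1 and Zm00001d049995 had 0. With matched regulators alone, Zm00001d026501 had 0, and its Jaccard index with Zm00001d017958 and with the nitrite reductase was 0. Without the longer stretch of Zm00001d003176 its index with Zm00001d017958 was 0. Among genes with at least 2 regulators, 9.77% had at least as many as the nitrite reductase.

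Stricter thresholds and leaving out replicates were not run, since edges carry no such values. The stretches have no value for G2 edges entered 2 times. No paired analysis was possible because edges are not tied to libraries. Depth is unknown and limits which edges were listed.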
